A study of Mus musculus with 14 samples.

Results

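ATP-binding cassette (ABC) transporters are membrane pumps that bind and hydrolyse ATP to move lipids, bile constituents, drugs, conjugates and peptides across membranes. In hepatocytes they work at opposite poles of the cell. Canalicular members load phospholipid, conjugates and drugs into bile, and basolateral members return conjugates to the blood. Other members sit in peroxisomes, mitochondria and lysosomes, and the E and F families have no membrane domain and act in translation. The genes described here are the protein-coding members of the A to G families in the deposited count table, by gene symbol, without *Abcb11*, *Abcg5* and *Abcg8*. This rule gave 47 of the 55487 genes in the table, and 36 of the 47 had enough reads to be tested.

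The livers came from 14 male TALLYHO/JnG mice aged 8–12 weeks, an inbred strain that develops type 2 diabetes from the combined action of many genes. Both groups were of this strain, but the study reports that diabetes progressed unevenly, with fasting blood glucose differing considerably between individual mice. Water (vehicle) was given to 7 mice and 20 mg/kg indole, a bacterial breakdown product of tryptophan, to 7 mice, by oral gavage 2 times per day for 7 consecutive days, with 2 further doses between the metabolic tests on day 8 and day 10. The right liver lobe was taken on day 11 for strand-specific mRNA sequencing, 1 library per mouse. The comparison asks which liver transcripts differ after indole, and here it is read for the ABC transporters. Indole derivatives are known ligands of the aryl hydrocarbon receptor and of the pregnane X receptor, both of which control genes of drug transport.

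Reads counted on genes ranged from 15390922 to 21060376 per mouse in the vehicle group and from 15197498 to 18464326 in the indole group. Levels are CPM, read counts scaled to the size of each library after TMM normalisation, and fold changes and *p* values are from the edgeR quasi-likelihood test. Hepatocyte marker genes summed to 78856–98142 CPM in vehicle-treated and 71469–105435 CPM in indole-treated mice, so all libraries carried the labelled tissue's RNA. Kupffer cell and macrophage markers summed to 125–298 CPM with vehicle and 150–548 CPM with indole, where the highest mouse, G8, stood above the next indole-treated mouse at 249.3 CPM, and 11 of the 12 markers were higher in mean, none with an unadjusted *p* below 0.05. Sinusoidal endothelial markers were at 79.6–144 and 102.4–180 CPM, with 8 of 8 higher in mean, and stellate cell markers at 261–316 and 173–381 CPM, with 4 higher and 5 lower. In each of the hepatocyte, endothelial, stellate and exocrine pancreas lists 1 gene had an unadjusted *p* below 0.05. The sums for T and NK cells, B and plasma cells and neutrophils did not exceed 9.29, 2.82 and 1.83 CPM, and *Ly6g*, the defining neutrophil marker, had no read. Exocrine pancreas markers summed to 9.94–13.2 and 10.2–19.7 CPM, nearly all of it from *Cela1*, the only tested gene of that list, with 3178 reads. Over all libraries *Prss2*, *Pnlip* and *Cpa1* had 1 read each and *Ctrb1* had 2, with no read on *Cela2a* and *Amy2b*. In bulk tissue, fewer cells of a type and less RNA per cell cannot be told apart.

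The feature that unites the family is the nucleotide-binding domain, whose Walker A loop grips the phosphates of ATP. A coding form of this loop, GG and GG with 7 free bases between them, then 4 free bases, GG, 1 free base and AA, in reading frame, was searched for on the coding strand of 1 coding sequence per gene (GENCODE annotation of GRCm38). Of the members with a coding sequence of at least 3000 bases, 28 held 2 such motifs and 2, *Abca13* and *Abca16*, held 3. The search left free the codon after the one that starts with AA, so a match need not be a Walker A loop. That next codon encoded proline at site 1 of *Abca13* and phenylalanine at site 2 of *Abca16*. At every site printed below it encoded serine. Among the shorter coding sequences, 12 held 1 motif, 4 (*Abce1*, *Abcf1*, *Abcf2* and *Abcf3*) held 2, and *Abcg3* held none in these letters. The 30-base windows below show the motif's fixed letters in capitals for the neighbouring chromosome 5 genes *Abcb1a*, *Abcb1b* and *Abcb4*, whose close sequence bears on how reads are assigned, for *Abcc10*, whose *p* was below 0.05 as was that of *Abcb4*, and for *Abcd3*, the most abundant member.
Abcb1a site 1: gttGGcaacagtGGctgtGGaAAaagcaca
Abcb1b site 1: gttGGcaacagtGGctgtGGaAAaagcaca
Abcb4 site 1: gttGGcaacagcGGctgtGGaAAaagcaca
Abcb1a site 2: gtgGGcagcagtGGctgcGGgAAgagcaca
Abcb1b site 2: gtgGGcagcagtGGctgtGGgAAgagcaca
Abcb4 site 2: gtgGGcagcagtGGctgcGGgAAgagcaca
Abcc10 site 1: gtgGGaaaggtgGGctgtGGgAAgagttcg
Abcc10 site 2: gtgGGccgcacaGGctccGGcAAgtcttcc
Abcd3 site 1: tgtGGtccaaacGGctgtGGaAAgagctcc

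All are exonic and coding. Those of *Abcb4* lie on the plus strand in exon 12 at chr5:8920386-8920415 and in exon 25 at chr5:8950780-8950809. Those of *Abcc10* lie on the minus strand in exon 5 at chr17:46316589-46316618 and in exon 16 at chr17:46305496-46305525, and that of *Abcd3* on the minus strand in exon 17 at chr3:121769536-121769565. Counting positions from 1 at the 5′ end of the window, *Abcb1a* and *Abcb4* differed at site 1 by T12C and were identical at site 2, where *Abcb1a* and *Abcb1b* differed by C18T. Over the whole principal transcripts, 7.72% of the 100-base windows of *Abcb1a* occurred unchanged in another member (*Abcb1b*), 8.72% of those of *Abcb1b* occurred in another member and 0.276% of those of *Abcb4* occurred in *Abcb1a*. Only uniquely mapped reads had been kept, and a read that fits both genes equally is not uniquely mapped. *Abca3* and *Abca17* shared 0.235% and 0.294% of their windows, and no other member shared any.

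Across the 36 tested members, none differed between the groups after adjustment over all 12653 genes tested, and the smallest adjusted *p* was 0.998. No gene in the whole table passed either (0%). An unadjusted *p* below 0.05 was found for 2 of the 36 members, 5.56%, against 3.81% of all genes tested, so the share of members was near the background. The 2 were *Abcb4*, lower with indole (2.28% of all genes were lower at this threshold), and *Abcc10*, higher with indole (1.53%). Of the members, 21 were higher and 15 were lower in fold change, with a median log2 fold change of 0.04, beside 0.00 over all genes tested. The median size of the log2 fold change was 0.0961 for members and 0.0886 for all genes.

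The intervals bound what these 14 mice could have hidden. For 34 of the 36 members the 95% interval of the log2 fold change included 0, for 26 it lay within 0.5 of 0 in both directions, and for 35 it lay within 1. Only the interval of *Abcd2* ran further. The groups overlapped for every member: for none were all indole-treated mice below, or all above, every vehicle-treated mouse, a pattern that 0.0237% of all genes showed in each direction. The summed level of all members was 2734–3005 CPM with vehicle and 2533–3242 CPM with indole.

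**Figure D1:**
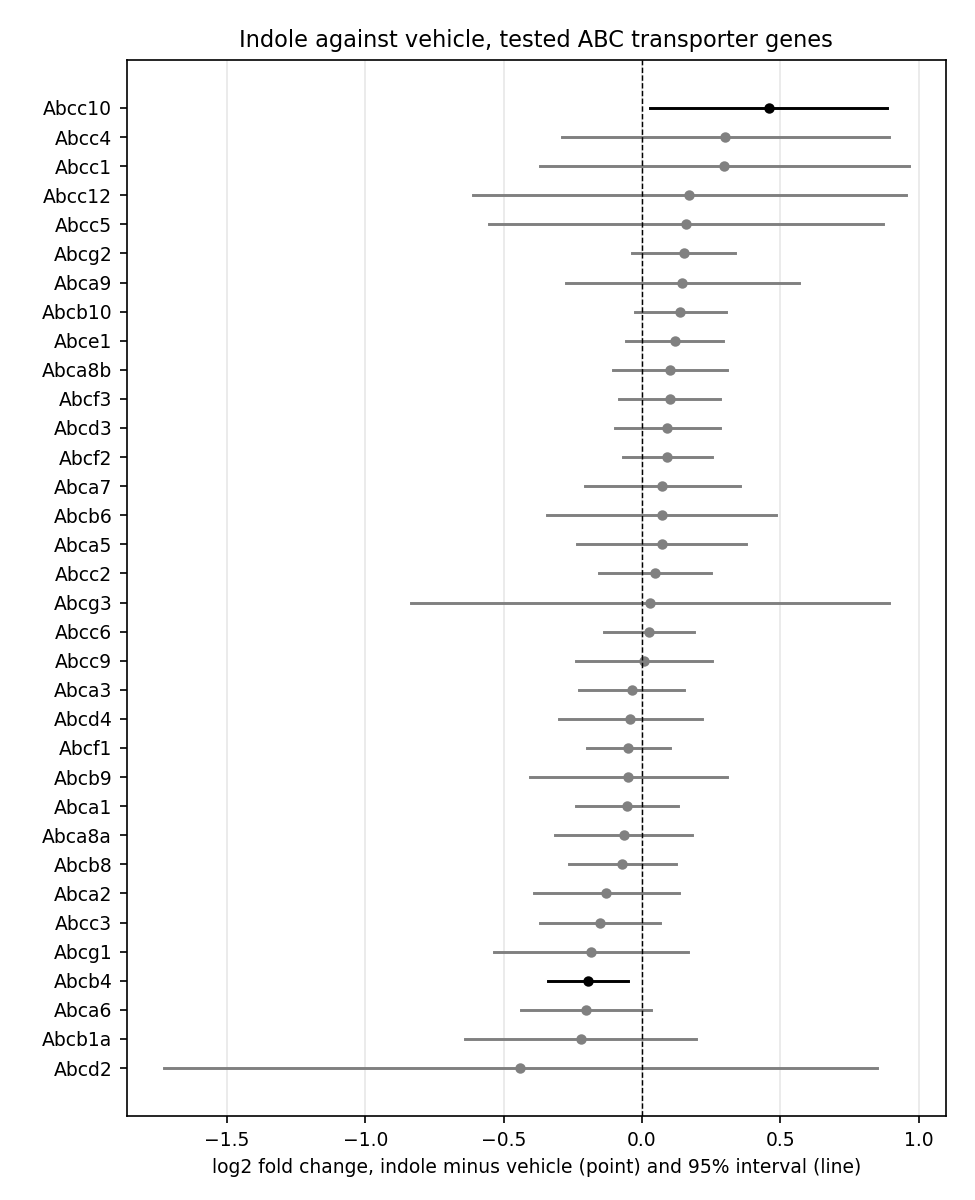
Fold changes of the tested members. Each point is the log2 fold change of indole against vehicle (7 mice each, edgeR) and each line its 95% interval, with the 2 members of unadjusted *p* below 0.05 in black; the grey lines all cross 0, the lowest point is that of *Abcd2* at -0.44 and the highest that of *Abcc10* at 0.46.

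Levels differed far more between members than between the groups. Per kilobase of gene model, the most abundant was *Abcd3*, which carries very-long-chain and branched acyl-CoAs and bile acid intermediates into peroxisomes, at a mean of 85.6 CPM per kb over the 14 mice. *Abcc2* followed at 40.7, *Abca3* at 35.9, *Abcb4* at 35.4, *Abcc3* at 35.0, *Abca6* at 27.4 and *Abcc6* at 23.8 CPM per kb. The 4 levels from *Abcc2* to *Abcc3* lie close together, and their order depended on the length used: with the length of the principal transcript instead, a choice made after the data had been seen, *Abcb4* stood at 81.4, *Abca3* at 51.9, *Abcc2* at 43.2 and *Abcc3* at 39.8 CPM per kb, behind *Abcd3* at 162. In CPM, 7 tested members were at 100 or more, 15 between 10 and 100 and 14 below 10. The least abundant tested member was *Abcc1*, a broad exporter of glutathione conjugates that hepatocytes hardly use at rest, at 0.0587 CPM per kb.

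**Figure D2:**
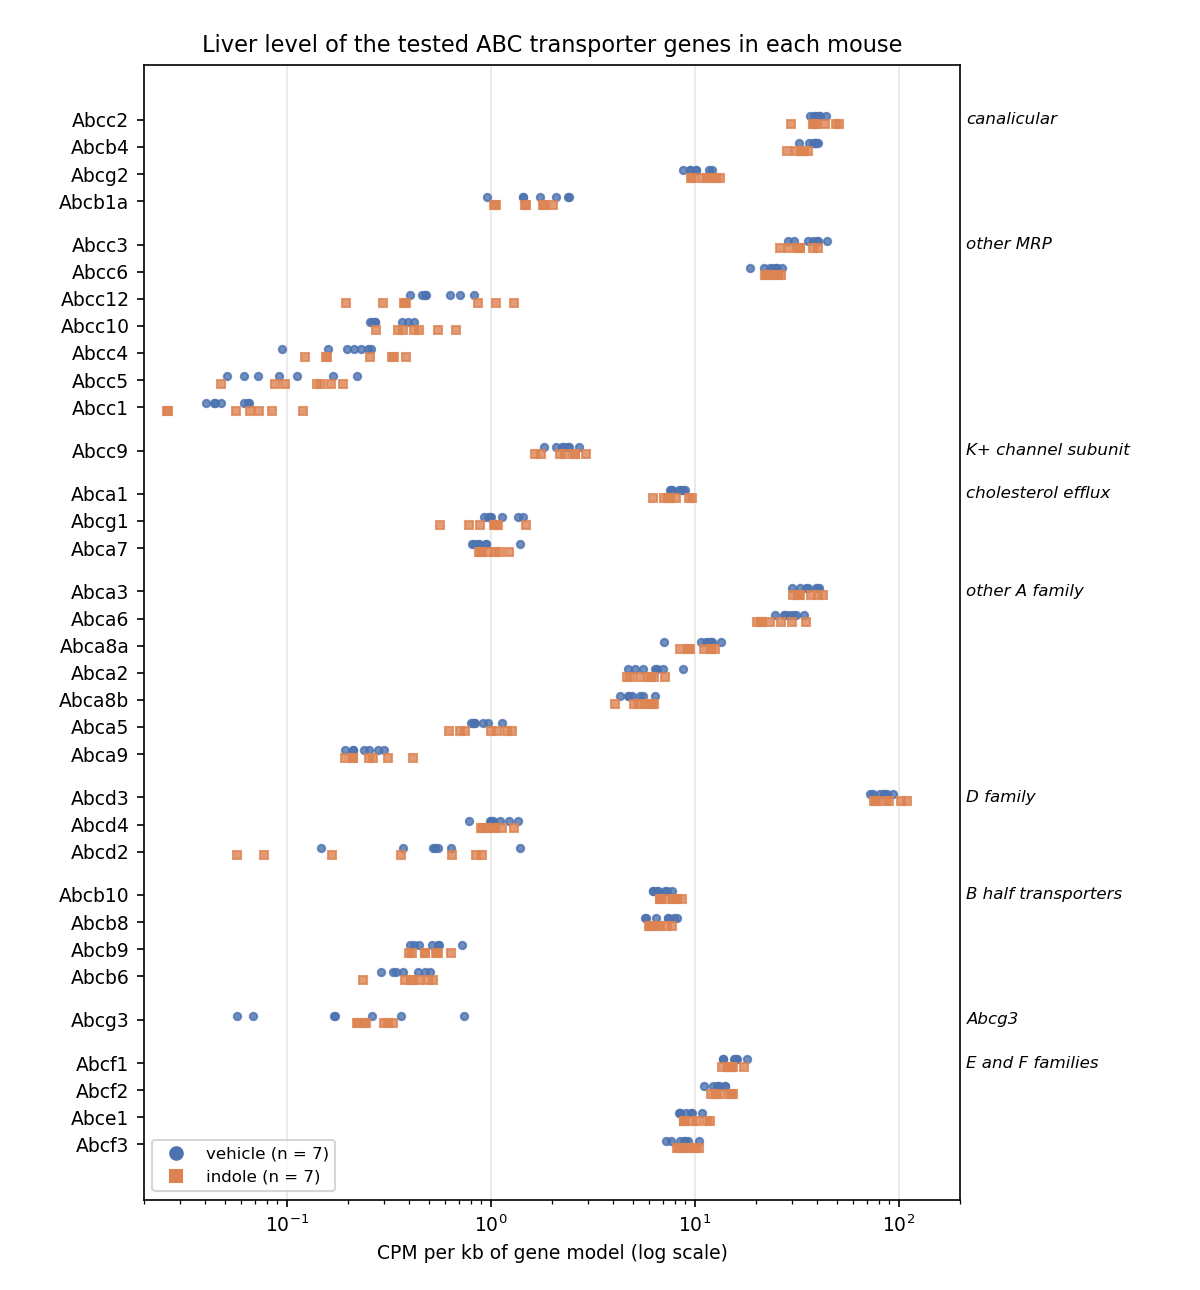
Level of the tested members in each mouse, grouped by role. The horizontal axis is the level in CPM per kilobase of gene model on a log scale, circles are the 7 vehicle-treated and squares the 7 indole-treated mice; the mean levels run from 0.0587 for *Abcc1* to 85.6 for *Abcd3*, and the points of both groups overlap in every line.

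Reads were too few for a test on 11 members. The most read of these was *Abcb1b*, the second mouse form of P-glycoprotein, with 59 reads in all, 38 in vehicle-treated and 21 in indole-treated mice and 1 to 8 per mouse. *Abca4*, the retinal transporter of photoreceptors, had 37 reads and *Abca17* had 34. *Abca14* had 5, *Abcg4* and *Abca13* had 2 each and *Abca16* had 1. No read fell on *Abca12*, a lipid transporter of skin, on *Abcc8*, the sulfonylurea receptor of beta cells, or on *Abca15* and *Abcb5*. A count of 0 in a library allows up to 3 reads there, by counting error alone. *Abca12*, *Abcc8*, *Abca15* and *Abcb5* were therefore undetected at this depth only. *Abcb1b* had a read in all 14 mice, *Abca4* in 13 and *Abca17* in 11.

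The canalicular exporters were 5 members, of which 4 were tested, 2 higher and 2 lower with indole. *Abcb4* (ENSMUSG00000042476, chr5:8893717-8959231, plus strand) encodes the floppase that puts phosphatidylcholine into bile and so shields the bile ducts from bile acids. Its level was 304.8 CPM at the lowest, 364.0 at the median and 377.8 at the highest in vehicle-treated mice, and 266.8, 315.8 and 336.9 CPM in indole-treated mice. All 7 indole-treated mice were below the vehicle median, 6 of the 7 vehicle-treated mice were above every indole-treated mouse, and 1 vehicle-treated mouse, G13, lay among the indole-treated ones. The means were 354.2±24.5 and 309.5±22.5 CPM (SD, *n*=7 each), a log2 fold change of -0.19 (SE 0.0698, 95% interval -0.34 to -0.05), or a change of -12.6%.

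This difference had an unadjusted *p* of 0.0112 in edgeR and an adjusted *p* of 0.998, and an exact two-sided permutation test with all 3432 ways to assign the mice to 2 groups of 7 gave *p*=0.00583, where the smallest possible was 0.000583. The unadjusted *p* ranked 85 among the 12653 genes tested. It was below 0.05 in 23 of 23 alternative analyses, with log2 fold changes from -0.23 to -0.16. Cholangiocyte markers, which label the cells that line the bile ducts, summed to 33.8–47.9 CPM with vehicle and 28.4–45.8 CPM with indole and were lower in mean for 6 of 6 tested genes, 1 with an unadjusted *p* below 0.05. Their part in the difference was not tested.

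For the other tested canalicular members the groups overlapped over most of their range. *Abcc2* exports bilirubin and drug conjugates. It was at 314.6, 343.8 and 375.7 CPM (lowest, median, highest) with vehicle and at 252.0, 336.7 and 436.9 CPM with indole, so that the indole-treated mice spanned the vehicle range on both sides. Its log2 fold change was 0.05 (SE 0.0974, unadjusted *p*=0.635 in edgeR). *Abcg2*, an exporter of urate, porphyrins and sulfate conjugates, was at 71.6, 82.5 and 99.7 CPM with vehicle and at 78.3, 94.1 and 108.0 CPM with indole, and 5 of the 7 indole-treated mice were above the vehicle median. The log2 fold change was 0.15 (SE 0.0895, unadjusted *p*=0.108 in edgeR; exact permutation *p*=0.139). Without vehicle mouse G10 it was 0.20 with an unadjusted *p* of 0.0351, and without indole mouse G3 0.19 with 0.0447. *Abcb1a*, the first mouse form of P-glycoprotein, was at 5.26, 9.53 and 13.3 CPM with vehicle and at 5.70, 8.20 and 11.03 CPM with indole, with a log2 fold change of -0.22 (SE 0.198, unadjusted *p*=0.277 in edgeR).

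**Figure D3:**
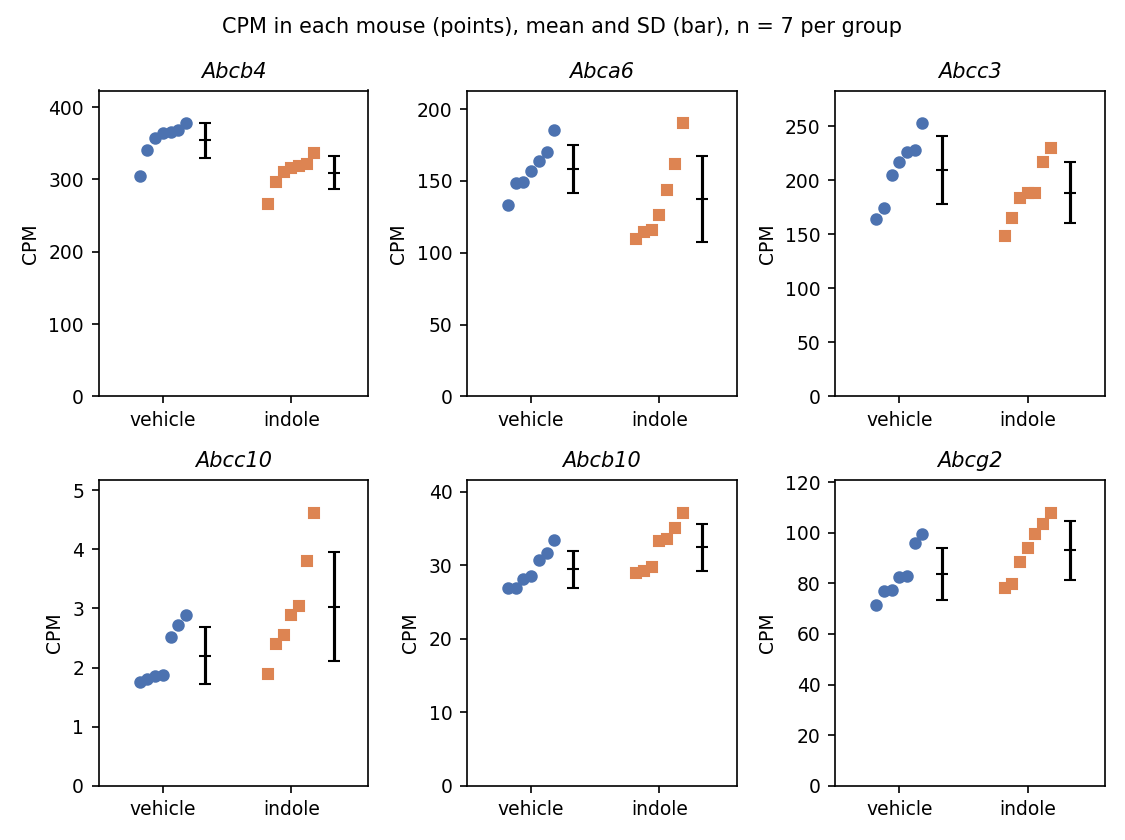
Levels of 6 members in each mouse. Points are single mice in CPM, bars are the mean and SD of the 7 mice of a group; the panels show the 3 members with the smallest *p* in each direction, and in the *Abcb4* panel 6 of the 7 vehicle-treated mice sit above every indole-treated mouse, while in the other panels the groups overlap more.

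The exporters of the C family outside the canaliculus, called multidrug resistance-associated proteins (MRPs), were 7 members, all tested, 6 higher and 1 lower with indole, where the direction of *Abcc5*, *Abcc6* and *Abcc12* turned in 1 or 2 of the 23 alternatives. *Abcc10* (ENSMUSG00000032842, chr17:46303221-46328352, minus strand), which encodes MRP7, an exporter of lipophilic drugs and conjugates, had a level of 1.76, 1.87 and 2.89 CPM (lowest, median, highest) with vehicle and of 1.88, 2.88 and 4.62 CPM with indole. All 7 indole-treated mice were above the vehicle median and 3 were above every vehicle-treated mouse. All 7 were also above it for *Abca7* and *Abcg3*, neither of which had an unadjusted *p* below 0.05 in edgeR. The share of all genes with this pattern was not counted. The means were 2.20±0.487 and 3.03±0.922 CPM (SD, *n*=7 each), a log2 fold change of 0.46 (SE 0.206, 95% interval 0.03 to 0.89).

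For *Abcc10* the unadjusted *p* was 0.0380 in edgeR, with an adjusted *p* of 0.998, and the exact permutation test gave *p*=0.0548. The gene had 26 to 88 reads per mouse, so its counting error is larger than that of the abundant members. The unadjusted *p* was below 0.05 in 16 of 23 alternatives. Without indole mouse G2, the highest at 4.62 CPM, the log2 fold change was 0.33 with an unadjusted *p* of 0.123, and leaving out 1 of the mice G3, G4, G6, G9 or G10 or using limma voom also took it above 0.05.

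*Abcc3* exports glucuronides into the blood and was the most abundant of these exporters. It was at 164.4, 216.9 and 252.9 CPM with vehicle and at 148.8, 187.9 and 229.8 CPM with indole, with 5 of the 7 indole-treated mice below the vehicle median. Its means of 209.7±31.3 and 188.7±28.0 CPM gave a log2 fold change of -0.15 (SE 0.104, unadjusted *p*=0.159 in edgeR). *Abcc6*, the liver ATP exporter whose loss causes ectopic mineralisation, was at 135.2±15.3 CPM with vehicle and 137.6±9.97 CPM with indole. *Abcc4*, which exports cyclic nucleotides and is raised in cholestasis, was at 1.29±0.367 and 1.59±0.667 CPM, *Abcc5* at 1.19±0.666 and 1.34±0.526 CPM and *Abcc1* at 0.794±0.165 and 0.976±0.4997 CPM. The intervals of these 3 were wide, and that of *Abcc1*, with 6 to 32 reads per mouse, ran from -0.37 to 0.96.

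*Abcc9* and *Abcc8* encode the sulfonylurea receptors, regulatory subunits of ATP-sensitive potassium channels and not pumps. *Abcc9* was at 15.3, 19.2 and 22.7 CPM (lowest, median, highest) with vehicle and at 13.8, 19.5 and 24.7 CPM with indole, with a log2 fold change of 0.01 (SE 0.118, unadjusted *p*=0.959 in edgeR). Its channel partner *Kcnj8* was at 3.39±1.15 and 3.62±0.770 CPM, whereas *Kcnj11*, the partner of *Abcc8*, had no read, as *Abcc8* had none.

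The cholesterol and phospholipid efflux members were 4, of which 3 were tested, 1 higher and 2 lower. *Abca1* lipidates apolipoprotein A-I to begin HDL. It was at 78.6, 86.9 and 93.4 CPM with vehicle and at 64.7, 78.6 and 100.5 CPM with indole, so the indole-treated mice again spanned the vehicle range, and the log2 fold change was -0.06 (SE 0.0882, unadjusted *p*=0.540 in edgeR). *Abcg1*, which passes cholesterol to formed HDL and is strong in macrophages, was at 6.77, 7.37 and 10.5 CPM with vehicle and at 4.12, 7.60 and 10.9 CPM with indole, a log2 fold change of -0.19 (SE 0.169, unadjusted *p*=0.285). *Abca7*, linked to phospholipid transport and phagocytosis, was at 6.44±1.36 and 6.79±0.872 CPM. In mouse G8, whose macrophage marker sum was the highest, *Abcg1* was at 10.9 CPM, the highest of the 14 mice, and *Abca1* was at 76.6 CPM, within the range of the other indole-treated mice. Vehicle mouse G9 was at 10.5 CPM for *Abcg1*, and no vehicle-treated mouse had a macrophage marker sum above 298 CPM. Without G8 the log2 fold change of *Abcg1* was -0.31 with an unadjusted *p* of 0.0620 in edgeR. The part of macrophages in the level of *Abcg1* was not tested.

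Of the 14 other lipid transporters of the A family, 7 were tested, 3 higher and 4 lower. *Abca3*, known for surfactant lipid in the lung, was the most abundant here at 281.1, 335.8 and 383.7 CPM with vehicle and 285.9, 306.9 and 398.3 CPM with indole, and its log2 fold change was -0.04 (SE 0.0912, unadjusted *p*=0.686 in edgeR). *Abca6* belongs to the tandem cluster of *Abca5*, *Abca6*, *Abca8a*, *Abca8b* and *Abca9* on chromosome 11. It was at 133.4, 157.0 and 185.8 CPM with vehicle and at 109.4, 126.6 and 190.2 CPM with indole. Of the indole-treated mice, 4 were below every vehicle-treated mouse and 1, G14, was above every one.

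The means of *Abca6* were 158.3±16.9 and 137.5±29.8 CPM, with a log2 fold change of -0.20 (SE 0.113, unadjusted *p*=0.0866 in edgeR; exact permutation *p*=0.104). Single mice decided on which side of 0.05 its *p* fell: without indole mouse G14 the log2 fold change was -0.30 with an unadjusted *p* of 0.00664, and without indole mouse G12 it was -0.24 with 0.0458. Its cluster neighbours stood elsewhere. *Abca8b* was at 38.2±5.11 and 41.0±5.73 CPM (log2 fold change 0.10, SE 0.0988), *Abca8a* at 70.4±12.6 and 67.2±10.1 CPM (-0.07, SE 0.119), and *Abca9* at 1.95±0.317 and 2.14±0.630 CPM (0.15, SE 0.202). *Abca5* was at 10.3±1.36 and 10.8±2.90 CPM, and *Abca2*, a lysosomal member strong in brain, at 52.6±11.4 and 48.2±7.39 CPM.

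The peroxisomal and lysosomal D family has 4 members, all tested, 2 higher and 2 lower. *Abcd3* (chr3:121758774-121815302, minus strand) was at 480.0, 556.4 and 622.4 CPM with vehicle and at 497.2, 570.8 and 722.9 CPM with indole, where 2 of the 7 indole-treated mice exceeded every vehicle-treated mouse. The log2 fold change was 0.09 (SE 0.0917, unadjusted *p*=0.328 in edgeR). *Abcd4*, a lysosomal cobalamin transporter, was at 8.59±1.49 and 8.34±1.13 CPM.

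The B family members of mitochondria and lysosomes, which carry 1 ATP-binding cassette each, were 5, all tested, 2 higher and 3 lower. *Abcb10* is an inner-membrane member needed for haem synthesis in red cell precursors. It was at 26.9, 28.5 and 33.5 CPM with vehicle and at 29.0, 33.4 and 37.2 CPM with indole. All 7 indole-treated mice were above the vehicle median, as they also were for *Abcc10*, *Abca7* and *Abcg3*.

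The means of *Abcb10* were 29.5±2.51 and 32.5±3.21 CPM, a log2 fold change of 0.14 (SE 0.0785, unadjusted *p*=0.0924 in edgeR; exact permutation *p*=0.0781). Without vehicle mouse G13 it was 0.17 with an unadjusted *p* of 0.0421. Erythroid markers were also higher in the indole group. They summed to 204–384 CPM with vehicle and 263–1092 CPM with indole, and 5 of the 5 tested genes were higher with an unadjusted *p* below 0.05. Their part in the level of *Abcb10* was not tested. *Abcb8* was at 33.1±4.76 and 31.6±3.19 CPM, *Abcb6* at 2.10±0.428 and 2.20±0.490 CPM and *Abcb9*, a lysosomal peptide transporter, at 2.90±0.611 and 2.80±0.470 CPM.

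The E and F family members, which bind ribosomes and cross no membrane, were 4, all tested, 3 higher and 1 lower. *Abcf1* was the most abundant per kilobase at 15.4 CPM per kb, with 60.8, 69.8 and 80.1 CPM (lowest, median, highest) with vehicle and 60.2, 65.45 and 76.9 CPM with indole, a log2 fold change of -0.05 (SE 0.0722, unadjusted *p*=0.501 in edgeR). *Abce1*, which splits ribosomes after termination, was at 55.5±5.55 and 60.2±7.67 CPM, *Abcf2* at 33.3±2.62 and 35.5±3.53 CPM and *Abcf3* at 31.0±3.89 and 33.2±3.25 CPM. The smallest unadjusted *p* of these 4 members was 0.178 in edgeR.

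The mice differed among themselves in a few members far more than the groups did. The biological coefficient of variation (BCV), the spread between mice of a group beyond counting error, had a median of 0.160 over the members and 0.166 over all genes tested, and 11 members lay above the trend for their level. *Abcd2*, a very-long-chain acyl-CoA transporter of peroxisomes, had a BCV of 0.763 where the trend was 0.265. It ran from 0.879 CPM at the lowest through 3.17 at the median to 8.31 CPM at the highest with vehicle, and from 0.338 through 2.17 to 5.38 CPM with indole. Its log2 fold change of -0.44 had an SE of 0.596, and without vehicle mouse G11, the highest, it was -0.07. *Abcd2* and *Abcc12* were singled out for their spread after their values had been seen.

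*Abcc12*, which encodes MRP9, had a BCV of 0.464 against a trend of 0.247. It was at 2.67, 3.22 and 5.51 CPM with vehicle and at 1.30, 2.57 and 8.62 CPM with indole. No indole-treated mouse fell inside the vehicle range: 4 were below every vehicle-treated mouse and 3, which were G2, G12 and G14, were above every one. The log2 fold change was 0.17 (SE 0.368), and its direction turned in limma voom, at -0.21, and without indole mouse G2, at -0.10. *Abcg3*, a rodent member, spread more in the vehicle group, at 0.203, 0.615 and 2.63 CPM, than in the indole group, at 0.788, 0.875 and 1.18 CPM. It had 3 to 48 reads per mouse, a BCV of 0.476 and a log2 fold change of 0.03 (SE 0.415), which kept its sign in 15 of 23 alternatives and ran from -0.14 without vehicle mouse G9 to 0.55 without vehicle mouse G4.

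**Figure D4:**
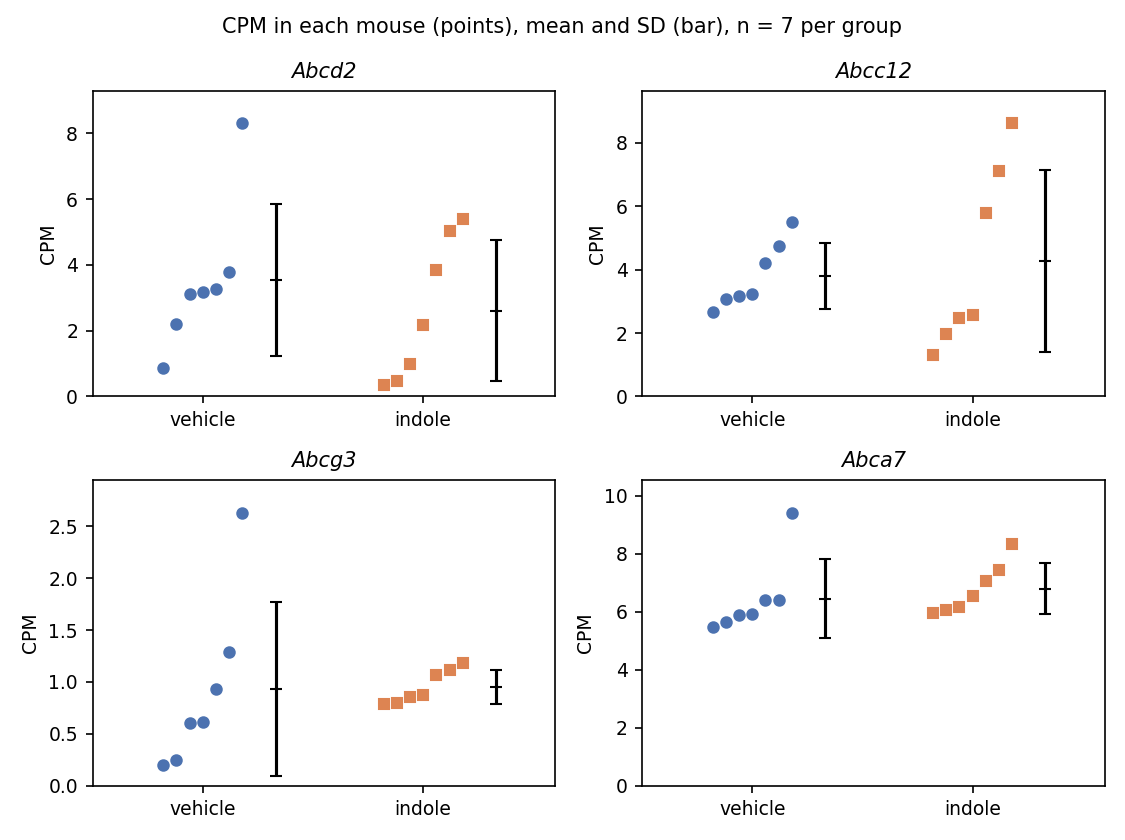
Members with widely spread mice. Points are single mice in CPM and bars the mean and SD of 7 mice; *Abcd2* runs from 0.338 to 8.31 CPM, the 7 indole-treated mice lie outside the vehicle range in *Abcc12*, the vehicle-treated mice spread more than the indole-treated mice in *Abcg3*, and 1 vehicle-treated mouse stands at 9.41 CPM in *Abca7*.

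**Figure D5:**
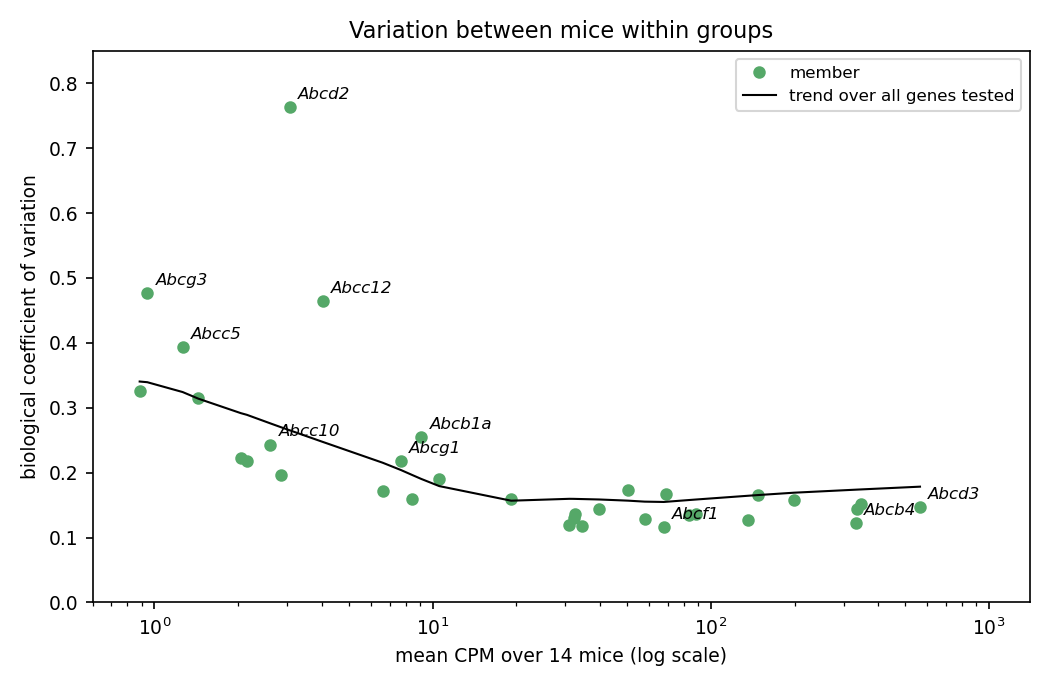
Spread between mice against level for the tested members. The horizontal axis is the mean level in CPM on a log scale and the vertical axis the biological coefficient of variation; the line is the trend over all genes tested, and *Abcd2* is the highest at 0.763.

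Pairs of members with a shared cluster, substrate or place were compared across mice after each group's mean had been subtracted (6 pairs, *n*=14, log2 CPM). The largest correlation was that of *Abca8a* and *Abca8b*, with Pearson's *r* of 0.38 (permutation *p*=0.194, adjusted 0.968) and Spearman's *ρ* of 0.21 (permutation *p*=0.482, adjusted 0.777). Elsewhere *r* was 0.26 for *Abca1* and *Abcg1*, 0.16 for *Abcb1a* and *Abcb1b*, 0.04 for *Abca6* and *Abca9* and -0.14 for *Abcc2* and *Abcc3*, and the adjusted permutation *p* of *r* was 0.968 in each. Without the 2 mice farthest from the median of the first gene, *r* was 0.40 for *Abca8a* and *Abca8b*, 0.11 for *Abca1* and *Abcg1*, 0.22 for *Abcb1a* and *Abcb1b*, 0.39 for *Abca6* and *Abca9* and -0.26 for *Abcc2* and *Abcc3*. Without G8 it was 0.54 for *Abca8a* and *Abca8b* (adjusted permutation *p*=0.378) and 0.43 for *Abca1* and *Abcg1* (0.708). No pair therefore passed the test, and the pair of *Abcb1a* and *Abcb1b* rests on 1 to 8 reads per mouse of the second gene.

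The regulators and partners of these transporters were read from the same test. Of 18 regulators of ABC transporter genes, all tested, 6 were higher and 12 lower. They were transcription factors apart from *Keap1*, which is not one itself. Their median log2 fold change was -0.06 and none had an unadjusted *p* below 0.05 (background 3.81%). The most abundant was *Hnf4a*, the hepatocyte master regulator, at 476.5±40.1 CPM with vehicle and 453.4±26.6 CPM with indole. *Ahr* was at 31.6±6.33 and 34.3±6.72 CPM (log2 fold change 0.12), and *Nr1i2*, which encodes the pregnane X receptor, at 52.1±5.61 and 50.4±7.05 CPM (-0.05). *Nr1h4*, the bile acid receptor FXR that drives *Abcb4*, was at 111.2±7.54 and 106.8±8.87 CPM (-0.06, SE 0.0686).

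Among 28 partners of single members, such as acceptors, chaperones and channel subunits, 27 were tested, with 14 higher, 13 lower, a median log2 fold change of 0.01 and none with an unadjusted *p* below 0.05. The most abundant was *Apoa1*, the acceptor for *Abca1*, at 5081±650.1 and 5054±662.7 CPM. *Slc25a37*, the iron importer partner of *Abcb10*, had a log2 fold change of 0.21 (SE 0.117, unadjusted *p*=0.0840 in edgeR), and *Atp8b1*, the flippase that acts beside *Abcb4* at the canaliculus, one of -0.04 (SE 0.0996). Of 16 solute carriers for organic solutes, not all of them for uptake (*Slc47a1*, *Slc51a* and *Slc51b* work in export), 15 were tested. Of these, 7 were higher and 8 lower, with a median of -0.00 and none with an unadjusted *p* below 0.05. *Slc10a1*, the bile acid importer, was the most abundant of them at 1059±148.0 and 1087±142.5 CPM.

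Promoter sequence was available for 35 members in RefSeq (GRCm38.p6), as the 250 bases before the start that RefSeq gives, which need not be that of the deposited gene model. Among the members without an entry were *Abca6*, *Abcb8*, *Abcc1*, *Abcc3*, *Abcc6*, *Abcc8*, *Abcd2*, *Abcd4*, *Abcg1* and *Abcg4*. Median GC content was 58.0% for these 35 and 52.0% for all 27025 promoters, with 13 and 6 CpG. Of the members, the 26 tested had a median of 61.6% GC and the 9 untested one of 52.8%. On either strand, GCGTG, the core of the aryl hydrocarbon receptor element, occurred in 28.6% of the members and 28.2% of all promoters. AGGTCA, the nuclear receptor core, occurred in 11.4% and 13.8%, TGACNNNGC, the antioxidant element, in 8.6% and 10.1%, and CCAAT in 31.4% and 34.5%. TATAAA occurred in 3 of the 35 members and 3504 of all promoters. GGGCGG, the GC box, occurred in 45.7% and 32.9%, and CACGTG, the E-box, in 14.3% and 6.0%.

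The promoters of the 2 members with an unadjusted *p* below 0.05 and of the most abundant member are shown 5′ to 3′ on the gene's strand, with every match to these 7 motifs on either strand in capitals. They are *Abcb4* (chr5:8893471-8893720, plus strand), *Abcc10* (chr17:46328024-46328273, minus strand) and *Abcd3* (chr3:121815303-121815552, minus strand). The *Abcd3* window ends at the deposited gene's start and that of *Abcb4* runs 4 bases past it. The *Abcc10* window lies wholly inside the deposited gene, from 79 bases past its start, and 146 of its bases are in an exon of a non-coding *Abcc10* transcript in GENCODE.
Abcb4 promoter: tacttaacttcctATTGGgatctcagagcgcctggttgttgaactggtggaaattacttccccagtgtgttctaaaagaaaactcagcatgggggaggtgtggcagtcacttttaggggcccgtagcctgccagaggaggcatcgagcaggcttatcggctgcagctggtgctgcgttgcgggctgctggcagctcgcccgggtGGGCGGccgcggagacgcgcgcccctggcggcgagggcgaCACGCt
Abcc10 promoter: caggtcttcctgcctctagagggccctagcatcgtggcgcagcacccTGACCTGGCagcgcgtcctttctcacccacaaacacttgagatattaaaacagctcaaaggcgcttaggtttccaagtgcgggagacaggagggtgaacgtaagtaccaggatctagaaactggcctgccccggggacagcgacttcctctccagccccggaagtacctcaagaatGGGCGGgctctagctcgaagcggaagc
Abcd3 promoter: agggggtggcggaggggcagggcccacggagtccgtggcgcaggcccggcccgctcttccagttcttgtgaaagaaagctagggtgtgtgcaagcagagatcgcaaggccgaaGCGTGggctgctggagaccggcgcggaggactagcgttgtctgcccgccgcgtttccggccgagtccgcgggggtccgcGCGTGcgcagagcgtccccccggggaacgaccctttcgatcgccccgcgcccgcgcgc

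*Abcb4* held CCAAT on the reverse strand, GGGCGG and, on the reverse strand, GCGTG. *Abcc10* held GGGCGG and a stretch where AGGTCA on the reverse strand and TGACNNNGC overlap, and *Abcd3* held GCGTG at 2 places. A match describes the letters only.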

How the data were processed

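The authors deposited a raw count of reads per gene for each of the 14 libraries, without normalisation. Per the study's methods, adapters were trimmed, reads were aligned with HISAT2 to GRCm38 (Ensembl 102 annotation) and uniquely mapped reads were kept. The counting tool and its strand setting are not given in the sources used here, so overlapping and antisense genes may share reads. All 14 columns of counts were used and 0 columns lacked a sample. Each library was assigned to its group from its label, and its name (G1 to G14) is that of the mouse. Total counts were 15197498 to 21060376 per mouse.

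The comparison was fitted on the 12653 genes that passed filterByExpr, with edgeR 4.0.16 in R 4.3.3 (TMM, robust quasi-likelihood fit and test, Benjamini–Hochberg adjustment over those genes). The fit was also run on simulated data. The changes planted there were larger than that of any member, so that run does not cover changes of the size seen here. The authors used DESeq2, which here (1.42.0) was an alternative, with *p* below 0.05 unadjusted for 3.19% of 22535 genes with a read. Standard errors were obtained from each log2 fold change and its F statistic (absolute fold change over the root of F). Exact permutation tests were two-sided on mean log2 CPM with a prior count of 2, and correlations used 100000 permutations. Floors and limits cover counting error only. The alternatives, 23 in all, were DESeq2 on both gene sets, limma 3.58.1 voom with sample weights, scaling by RLE or by the upper quartile, testing without a filter or at a mean of at least 10 counts, a fit that was not robust, leaving out each mouse, and leaving out G8 and G11 together.

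Members, roles, pathway and marker lists were chosen with earlier results of these data known. The symbol of 1 of the 8 hepatocyte markers was not matched. Genes named with full values were every member with an unadjusted *p* below 0.05, the 3 members in each direction with the lowest *p*, the most abundant tested member of each role and the members of the 6 pairs. Some results that this rule names are not reported here or drawn in the plots, though the counts over members include them. Other tested members were named with their level, and untested members with their total count. Of the pathway lists, the rule named the most abundant gene and any gene whose unadjusted *p* was below 0.05. *Ahr*, *Nr1i2*, *Nr1h4*, *Slc25a37*, *Atp8b1*, *Kcnj8* and *Kcnj11* were named in addition for their known link to a member, and the fold changes of *Abcd2* and *Abcc12* for their spread, after their values had been seen. Coding sequences, exons and motif windows are from GENCODE M21 on GRCm38, read in Python 3.11.15 with pandas 2.3.3.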

Additional observations from a re-analysis of the deposited data

Results flagged for a closer look

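In 4 of 76 comparisons of a member within a group of 7 mice, 1 mouse lay so far from the rest that its gap to the nearest mouse exceeded Dixon's 95% limit for 7 samples, as a share of the group's range. Chance gives about 1 in 20, or 3.8 of 76. Vehicle mouse G11 was 3 of the 4. It was the highest for *Abca7*, at 9.41 CPM where the next mouse was at 6.40 CPM (share 0.765), the highest for *Abcd2*, at 8.31 CPM where the next was at 3.79 CPM (share 0.608), and the lowest for *Abca8a*, at 44.6 CPM where the next was at 67.5 CPM (share 0.571).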

How the results depend on the processing

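No member had an adjusted *p* below 0.05 in any of the 23 alternatives, and the median log2 fold change over the members stayed between 0.00 and 0.06. Of the members' own log2 fold changes, 790 values kept their sign and side of an unadjusted *p* of 0.05, 7 went above it, 5 went below it, and 26 values in 10 members, none called, took the other sign. Without G8 and G11 together the value was 0.0111 for *Abca3*, 0.0310 for *Abcb9*, -0.0432 for *Abcc5*, 0.0266 for *Abcd4* and -0.0337 for *Abcg3*, and in limma voom it was -0.21 for *Abcc12* and -0.0335 for *Abcc9*. With 1 mouse left out it ran from -0.0112 to 0.149 for *Abca5*, -0.117 to 0.0508 for *Abcb9*, -0.10 to 0.33 for *Abcc12*, -0.00971 to 0.113 for *Abcc2*, -0.0208 to 0.0597 for *Abcc6*, -0.0640 to 0.0762 for *Abcc9*, -0.102 to 0.0271 for *Abcd4* and -0.14 to 0.55 for *Abcg3*. The count of members with an unadjusted *p* below 0.05 was 2, with 1 in limma voom, 3 without a filter on low counts and between 1 (without G2, G4, G6 or G9) and 3 (without G12, G13 or G14) when a mouse was left out. Over all genes that count was 482, and 1336 without a filter on low counts, where 22535 genes were tested in place of 12653. DESeq2 on the same genes gave 1 gene with an adjusted *p* below 0.05, which was no member. Of the regulators 1 passed an unadjusted *p* below 0.05 in limma voom. With a mouse left out this count was 0 to 1 for the regulators and for the solute carriers. It was 0 to 2 for the partners (2 without G5 or G10). The correlation of *Abca6* and *Abca9* was -0.0887 without G8 and 0.0416 with it (adjusted permutation *p*=0.821 and 0.968). The cause of these changes was not tested. The principal transcript's length, chosen after the data had been seen, moved the level per kilobase of 19 of the 36 members by more than the spread between mice. No paired analysis was possible because no replicate name occurs in both groups. Depth limits the members below 10 CPM.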
